A study of Mus musculus with 3 samples.

Results

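The genes described here form the ATF4 amino acid response: 31 genes listed by symbol as regulators and targets of the transcription factor ATF4. They comprise 11 stress regulators and secreted factors, 11 enzymes that mostly make amino acids or feed the folate cycle, and 9 amino acid transporters. A value was taken from the probe set annotated to exactly 1 of the symbols, and 30 of the 31 genes had one, out of 19938 genes in all. Pycr1, which encodes an enzyme of proline synthesis, had no such probe set and is not described by level. Each of the 30 was represented by a single probe set.

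The samples were kidneys of C57BL/6 mouse embryos at embryonic day 11.5, laid on Transwell filters and cultured for 48 h. One group was kept in DMEM with 10% FBS (called serum), another in DMEM without serum (serum-free), and the third in DMEM with retinoic acid but no serum (retinoic acid). The labels name no mutation or transgene, and all groups shared the strain, the stage, the filter culture and its length. The dose of retinoic acid, and how many kidneys went into each RNA sample, are not stated in the labels. RNA of each medium went onto 1 Affymetrix Mouse Gene 1.0 ST array, so there were 3 arrays and no replicates. The differences below therefore come without an error or a test. They describe these 3 arrays, and the number of arrays limits their precision.

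When amino acids run short, uncharged tRNA activates the kinase GCN2, which phosphorylates the initiation factor eIF2. General translation then slows while translation of the ATF4 messenger RNA increases, and the ATF4 protein switches on genes that import amino acids, synthesise them and charge them onto tRNA. Endoplasmic reticulum stress reaches the same factor through the kinase PERK, and growth factor signalling through mTORC1 also raises ATF4 activity in many cells. ATF4 acts largely at the protein level, so that its messenger RNA is a poor gauge of its activity. It binds DNA with C/EBP partners at a composite site, the C/EBP-ATF response element, or CARE.

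The promoters of the members were read for that element, because it is the sequence through which ATF4 reaches its targets. Promoter sequences came from RefSeq (build GRCm38.p6) and covered 250 bases before to 50 after each annotated gene start. Of the 31 genes, 27 had an entry, and Cth, Slc7a3, Slc7a5 and Slc1a5 had none. The core searched was TGATGNAA, on both strands (TTNCATCA when read on the other strand). A match was present in 9 of 27 members, or 33.3%, beside 4.51% of 27025 genes in the same table. With the stricter core TGATGCAA it was 7 of 27 members, or 25.9%, beside 1.03% of all genes. A match describes the letters only and does not show binding, and the members had been listed because many are known ATF4 targets. Stretches of the 7 members that had an array value and a match starting before the gene start are given 5′ to 3′ on the strand of the gene, with the matching core in capitals.
Chac1: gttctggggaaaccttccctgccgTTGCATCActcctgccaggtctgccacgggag
Asns: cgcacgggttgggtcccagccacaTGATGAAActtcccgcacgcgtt
Slc7a11: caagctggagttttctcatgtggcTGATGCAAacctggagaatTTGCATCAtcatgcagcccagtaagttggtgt
Slc1a4: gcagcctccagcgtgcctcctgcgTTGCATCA
Vldlr: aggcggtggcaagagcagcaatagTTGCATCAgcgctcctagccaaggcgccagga
Nupr1: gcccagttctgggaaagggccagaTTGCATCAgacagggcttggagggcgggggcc
Fgf21: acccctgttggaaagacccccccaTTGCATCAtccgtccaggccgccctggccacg

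These stretches lie at chr2:119351025-119351080 on the plus strand for Chac1, chr6:7693210-7693256 on the minus strand for Asns, and chr3:50443629-50443703 on the minus strand for Slc7a11. For Slc1a4 the stretch is chr11:20332710-20332741 on the minus strand and for Vldlr chr19:27216796-27216851 on the plus strand. For Nupr1 it is chr7:126625549-126625604 and for Fgf21 chr7:45615598-45615653, both on the minus strand. The Slc7a11 promoter held 2 cores in opposite orientation, starting 66 and 47 bases before the gene start. The Asns core was of the TGATGAAA form and began 23 bases before the start, while that of Slc1a4 began 4 bases before the start and ran across it. The cores of Chac1, Nupr1, Fgf21 and Vldlr began 193, 110, 139 and 200 bases upstream, the last at 1 of 2 annotated Vldlr starts. Trib3 matched only after its start, and Pycr1, which has no array value, matched 103 bases before it.

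**Figure D1:**
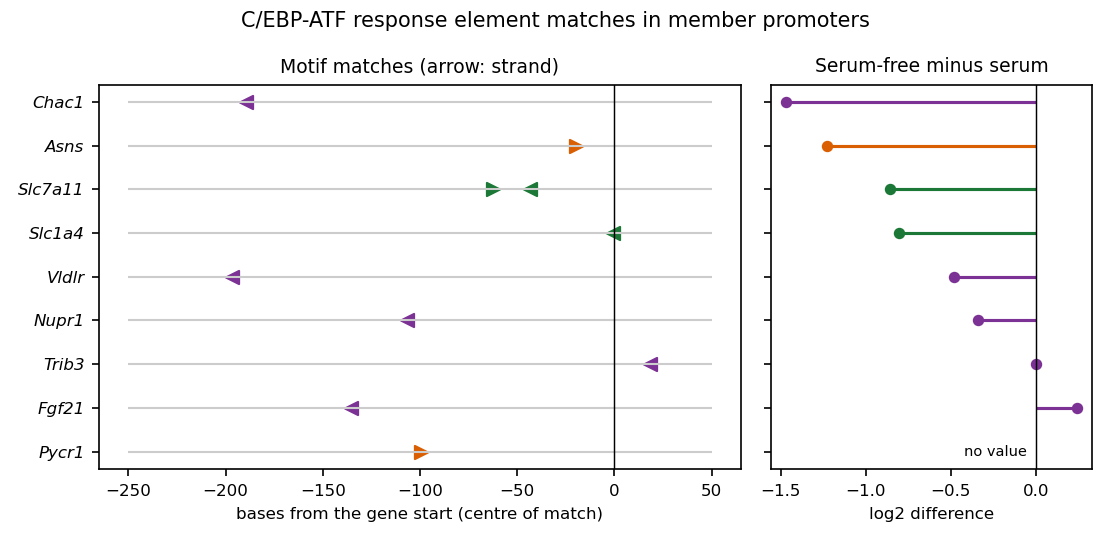
Left, places of the CARE core TGATGNAA in the promoters of the 9 members with a match, in bases from the gene start, with arrows for the strand and colours for the role (purple, stress regulators and secreted factors; orange, enzymes; green, transporters). Right, the log2 difference of the same genes, serum-free minus serum: Chac1 and Asns lie below -1, Slc7a11 and Slc1a4 between -0.80 and -0.86, Trib3 at 0 and Fgf21 above 0.

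All levels below are log2 probe set intensities and all differences are between such levels. A level of 7.12, the median over all genes and arrays, served as a floor, since background takes up more of a dimmer signal. A call in a comparison required a difference of 2-fold or more (1.5-fold or more in a looser count) and a level no lower than the floor on at least 1 of both arrays. Of the 30 genes, 23 were at or above the floor on all 3 arrays. Slc7a3 and Stc2 crossed it, and 5 (Trib3, Nupr1, Fgf21, Cbs and Slc7a11) were below it throughout.

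The first question was what leaving out serum did to these genes. The serum-free array was lower than the serum array for 25 of the 30, higher for 3 (Ddit3, Ddit4 and Fgf21) and exactly equal for 2 (Trib3 and Cbs). Over all 19938 genes, 31.9% were lower and 45.4% were exactly equal, ties that the array summary often returns. Scalings that break the ties changed this share more than that of the members: under cyclic loess 56.0% of all genes were lower beside 25 of 30 members, and with each array centred on its median 84.9% beside 28 of 30. At least 2-fold lower were 4 members, Slc7a3, Chac1, Asns and Cth, where 0.699% of the 10156 genes that passed the floor were, and 0 members were at least 2-fold higher, where 0.876% of genes were. At least 1.5-fold lower were 11 members, beside 2.07% of genes, and 0 were at least 1.5-fold higher, beside 2.01%. The floor was passed by 25 of the 30 members, of which Slc7a3 and Stc2 passed through their serum value alone. The median difference over all 30 was -0.46, and over all genes 0.

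**Figure D2:**
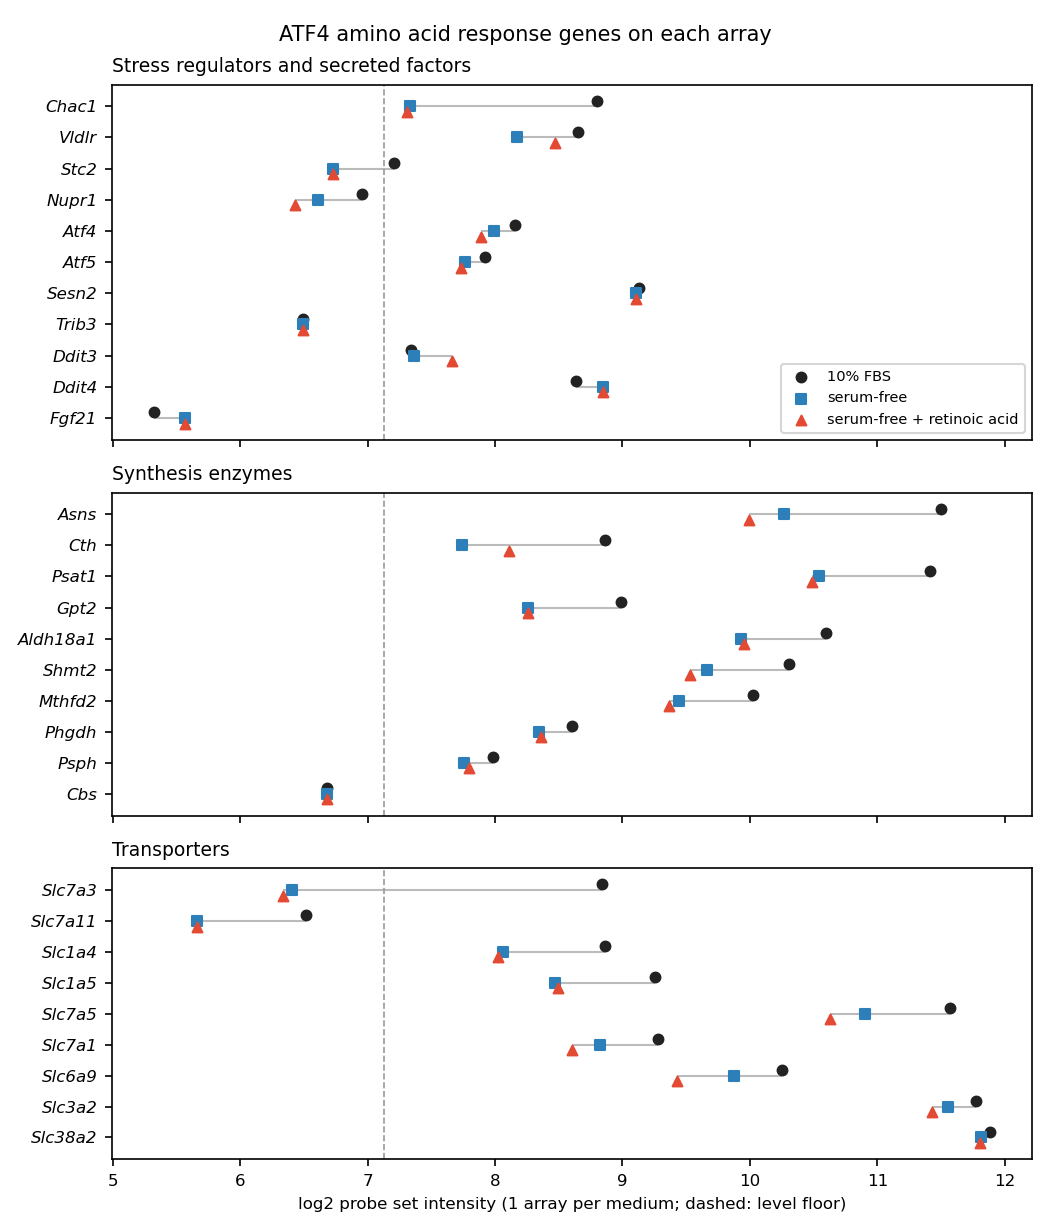
Log2 probe set intensity of each of the 30 members on the 3 arrays, with 1 point per array (circle, serum; square, serum-free; triangle, retinoic acid) and the floor of 7.12 dashed. In 25 of the 30 rows the serum point is the one farthest to the right.

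All 9 transporters were lower without serum, with a median of -0.67. Slc7a3 encodes CAT-3, which carries arginine, lysine and ornithine, and its level was 8.84 in serum, 6.40 serum-free and 6.34 with retinoic acid. It was 5.40-fold lower without serum and stood at rank 3 from the bottom of the 10156 genes that passed the floor. Both serum-free values lay under the floor, so the size of this difference is uncertain, and with 32 added to the intensities, which damps dim signals, it was -2.07. Slc7a1, the more widely expressed transporter of the same cationic amino acids, was at 9.28, 8.82 and 8.60 in the same order of media, a difference of -0.46 without serum. Both paralogs were lower on each array without serum.

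Slc1a4 (ASCT1) and Slc1a5 (ASCT2) exchange small neutral amino acids, the second being a main route for glutamine. Slc1a4 was at 8.86 in serum, 8.06 serum-free and 8.02 with retinoic acid. Slc1a5 was at 9.25, 8.47 and 8.50 in that order. Without serum they were 1.74-fold and 1.72-fold lower, and in both genes the serum array stood apart from the other 2 arrays.

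Slc7a5 (LAT1) and Slc7a11 (xCT) are light chains that reach the membrane only when joined to the heavy chain encoded by Slc3a2, the first to import large neutral amino acids and the second cystine. Slc7a5 read 11.57 in serum, 10.90 serum-free and 10.63 with retinoic acid, and Slc3a2 read 11.78, 11.56 and 11.43. The difference without serum was -0.67 for Slc7a5 and -0.22 for the heavy chain. Slc7a11 was under the floor on every array, at 6.52, 5.66 and 5.66. Its difference of -0.86 is therefore given as a value and was not counted.

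Slc6a9, the glycine transporter GlyT1, was at 10.25 in serum, 9.87 serum-free and 9.43 with retinoic acid. It is the member with the largest step down on adding retinoic acid. Slc38a2 (SNAT2), a sodium-coupled importer of small neutral amino acids and a classical gene of amino acid starvation, was at 11.89, 11.81 and 11.81. It differed by only -0.07 without serum, the smallest difference among the transporters.

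Of the 10 measured enzymes, 9 were lower without serum and 1 was equal, with a median of -0.65. Asns, which makes asparagine from aspartate and glutamine and is a standard readout of ATF4, was at 11.50 in serum, 10.27 serum-free and 9.99 with retinoic acid. It was 2.35-fold lower without serum. Cth, which encodes cystathionine gamma-lyase and makes cysteine, was at 8.86, 7.74 and 8.11, or 2.18-fold lower without serum. Cbs, whose product acts just before Cth in the same route, was listed at 6.68 on all 3 arrays, under the floor.

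Serine is made from a glycolytic intermediate by the products of Phgdh, Psat1 and Psph in that order. The middle enzyme differed most. Psat1 was at 11.41 in serum, 10.54 serum-free and 10.49 with retinoic acid, 1.83-fold lower without serum. Phgdh was at 8.60, 8.35 and 8.36, a difference of -0.25, and Psph at 7.99, 7.76 and 7.80, a difference of -0.23.

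Shmt2 and Mthfd2 carry the serine-derived carbon through the mitochondrial folate cycle. Shmt2 was at 10.31 in serum, 9.67 serum-free and 9.53 with retinoic acid, and Mthfd2 at 10.02, 9.45 and 9.37. They were 1.56-fold and 1.49-fold lower without serum, on either side of the looser threshold. Aldh18a1, which starts the synthesis of proline and ornithine from glutamate, was at 10.60, 9.93 and 9.95. Gpt2, the mitochondrial alanine aminotransferase, was at 8.99, 8.26 and 8.26. Both were also lower without serum by over 1.5-fold, at -0.67 and -0.73, and in all 4 genes the serum value was the highest.

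**Figure D3:**
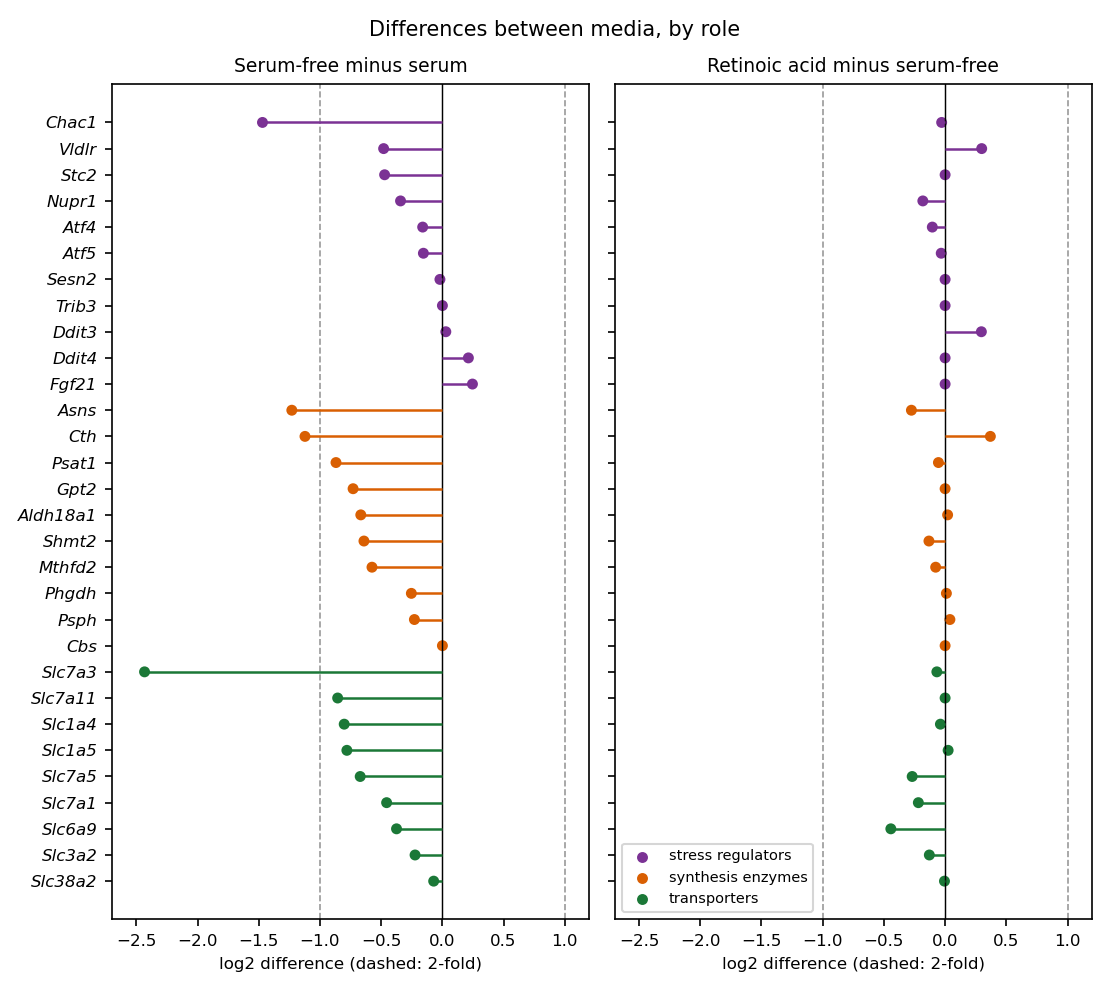
Log2 difference of each member for serum-free minus serum (left) and retinoic acid minus serum-free (right), coloured by role, with 2-fold dashed. On the left 4 genes lie beyond -1 and all transporters lie below 0. On the right all 30 lie between -0.44 and 0.37.

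Among the 11 stress regulators and secreted factors, 7 were lower without serum, 3 higher and 1 equal, with a median of -0.16, and Chac1 was the only one past 1.5-fold. Chac1 encodes an enzyme that degrades glutathione and is a sensitive ATF4 target. Its level was 8.80 in serum, 7.33 serum-free and 7.31 with retinoic acid, so that it was 2.77-fold lower without serum. Atf4 itself was at 8.15, 7.99 and 7.89, a difference of -0.16, and its relative Atf5 was at 7.92, 7.77 and 7.74.

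Ddit3 (CHOP), a transcription factor that ATF4 induces under severe stress, was at 7.34 in serum, 7.37 serum-free and 7.66 with retinoic acid. Ddit4 (REDD1) and Sesn2 both encode inhibitors of mTORC1. Ddit4 was at 8.63, 8.85 and 8.85, and Sesn2 at 9.13, 9.11 and 9.11. Trib3, a pseudokinase that restrains ATF4 and CHOP, was listed at 6.49 on all 3 arrays, under the floor. Among these 4 genes the largest difference without serum was 0.21, for Ddit4.

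Vldlr, a lipoprotein receptor, was at 8.65 in serum, 8.17 serum-free and 8.47 with retinoic acid. Stc2, which encodes the secreted glycoprotein stanniocalcin 2, was at 7.20, 6.73 and 6.73, the last values under the floor. Their differences without serum were -0.48 and -0.47. Nupr1, a small stress-induced chromatin protein, was under the floor at 6.95, 6.61 and 6.43. Fgf21, a hormone that ATF4 induces chiefly in liver and muscle, was also under the floor, at 5.32, 5.57 and 5.57.

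**Figure D4:**
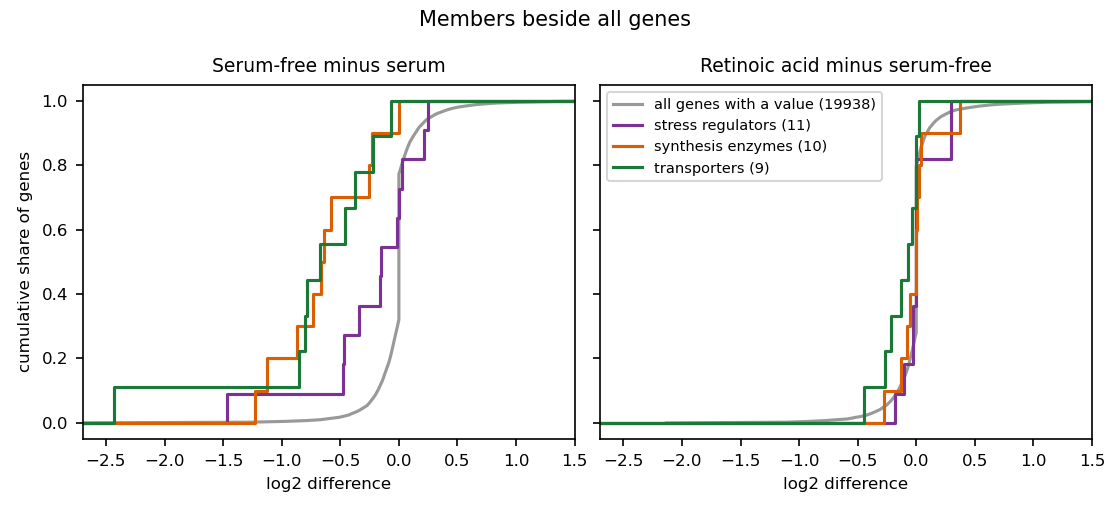
Cumulative share of genes by log2 difference, for all genes with a value (grey) and for the members by role (11 stress regulators and secreted factors, 10 enzymes, 9 transporters). For serum-free minus serum the enzyme and transporter curves lie to the left of the grey curve, with medians of -0.65 and -0.67. For retinoic acid minus serum-free the medians are 0 for the stress regulators and secreted factors, 0 for the enzymes and -0.07 for the transporters. In that panel 7 of the 9 transporters lie below 0, 1 above and 1 at 0. Of all genes 28.0% lie below 0 and 51.6% at 0.

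Set beside the promoter search, the 8 measured members with a CARE core had differences without serum from -1.47 to 0.25, with a median of -0.64. The 18 measured members whose promoters had no match ran from -0.87 to 0.21, with a median of -0.24. The ranges overlap widely. Of the 8, Trib3, Fgf21, Nupr1 and Slc7a11 were under the floor on every array, and the other 4 ran from -1.47 (Chac1) to -0.48 (Vldlr). Of the 4 genes at least 2-fold lower, Chac1 and Asns held the core, and Slc7a3 and Cth had no promoter entry.

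The next question was what adding retinoic acid to serum-free medium did. Between these arrays 0 of 30 members differed by 2-fold or by 1.5-fold in either direction, and 23 of the 30 passed the floor. Of all genes that passed, 0.613% were lower by 2-fold or more and 1.05% higher. At 1.5-fold or more these shares were 1.94% and 2.41%. With no member past either size, and shares of that order over all genes, the count does not set the members apart. The median over the 30 was -0.0026, with 15 members lower, 7 higher and 8 exactly equal. Over all genes 28.0% were lower and 51.6% exactly equal. Under cyclic loess the members' signs were 15 lower and 15 higher, and with centred arrays 14 lower and 16 higher, so these signs carry no direction.

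The largest differences with retinoic acid were -0.44 for Slc6a9 and 0.37 for Cth. Vldlr and Ddit3 were each higher by 0.30, and Asns, Slc7a5 and Slc7a1 differed by -0.28, -0.27 and -0.22. Of the 25 members that were lower without serum, 15 were lower again with retinoic acid, 4 were equal to the serum-free value and 6 lay between serum-free and serum. Those 6 were Vldlr, Phgdh, Psph, Cth, Aldh18a1 and Slc1a5, and 4 of them lay within 0.04 of the serum-free value. Some of the 15 steps down were as small, such as -0.005 for Slc38a2, -0.03 for Chac1 and Atf5 and -0.04 for Slc1a4. Both steps share the serum-free array and the signs depend on the scaling, so this order shows no direction. Against serum, the retinoic acid value differed by -0.75 for Cth and by -0.18 for Vldlr.

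The last comparison set retinoic acid without serum against full serum. It shares an array with each of the others, so its values restate theirs and give no separate support. At least 2-fold lower were 3 members, Slc7a3 at -2.50, Asns at -1.51 and Chac1 at -1.50, beside 0.816% of 10169 genes that passed the floor, and 0 were at least 2-fold higher, beside 1.04%. At least 1.5-fold lower were 14 of the 30, beside 2.84% of genes. The median was -0.59 over all 30, -0.82 over the transporters, -0.69 over the enzymes and -0.18 over the stress regulators and secreted factors.

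The neighbouring steps of the pathway were read from other lists. Like the members, these were chosen with earlier results of these data known, and they give no separate support. Cytosolic aminoacyl-tRNA synthetases load amino acids onto tRNA, and ATF4 also targets many of them. Of 18 measured, 17 were lower without serum and 1 was equal, with a median of -0.24. The share lower over all genes was 31.9%, but 56.0% under cyclic loess and 84.9% with centred arrays. Signs of the synthetases under those scalings are not given here. No synthetase was 2-fold lower, and 2 were at least 1.5-fold lower, beside 2.07% of genes that passed the floor. These were Cars (9.13 to 8.45) and Nars (11.37 to 10.73), the enzymes for cysteine and asparagine. Gars, for glycine, differed by -0.52. With retinoic acid the median of this list was 0, and the largest difference was 0.22, for Wars.

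Of 13 further reported ATF4 targets, 8 were lower without serum, 3 higher and 2 equal, beside 31.9% of all genes lower. That share of all genes was 56.0% under cyclic loess and 84.9% with centred arrays, so the count of signs does not set this list apart. The median of the 13 was -0.23, and 1 gene was at least 2-fold lower, beside 0.699% of genes that passed the floor. That gene was Aldh1l2, a mitochondrial folate enzyme beside Mthfd2, at 7.94 in serum, 6.34 serum-free and 6.56 with retinoic acid. It passed the floor through its serum value alone, so the size of its difference is uncertain. Eif4ebp1, an inhibitor of translation initiation, differed by -0.54, as did Mthfd1l, another enzyme of mitochondrial folate. Atf3, a stress-induced partner of ATF4, was at 8.23 in serum, 8.68 serum-free and 8.08 with retinoic acid. It was higher by 0.45 without serum, the largest rise in this list, and differed by -0.60 between retinoic acid and serum-free medium.

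Upstream of ATF4 the messenger RNA levels lay closer together, and the phosphorylation of eIF2 was not measured. Over 15 measured genes for eIF2 kinases, eIF2, its exchange factor eIF2B and the phosphatase that resets eIF2, the differences without serum ran from -0.25 to 0.12, with a median of -0.12. Eif2ak4, which encodes GCN2, was at 8.35 in serum and 8.10 without, and Eif2ak3, which encodes PERK, at 8.02 and 7.80. Of 19 genes of the endoplasmic reticulum unfolded protein response, 0 reached 1.5-fold without serum, and the median was -0.08. Among genes that passed the floor 2.07% were at least 1.5-fold lower and 2.01% higher. Xbp1 differed by -0.42 and the chaperone gene Hsp90b1 by -0.30.

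Amino acid transporters outside the member list went both ways. Of 23, 8 were lower without serum, 10 higher and 5 equal, beside 31.9% of all genes lower and 45.4% exactly equal. The list median was 0. Slc7a7, the light chain that exports cationic amino acids, was higher by 0.74 and Slc43a2 by 0.68, while Slc38a3 differed by -0.68. With retinoic acid the largest difference among those above the floor was -0.85, in Slc7a8 (10.02 to 9.17).

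**Figure D5:**
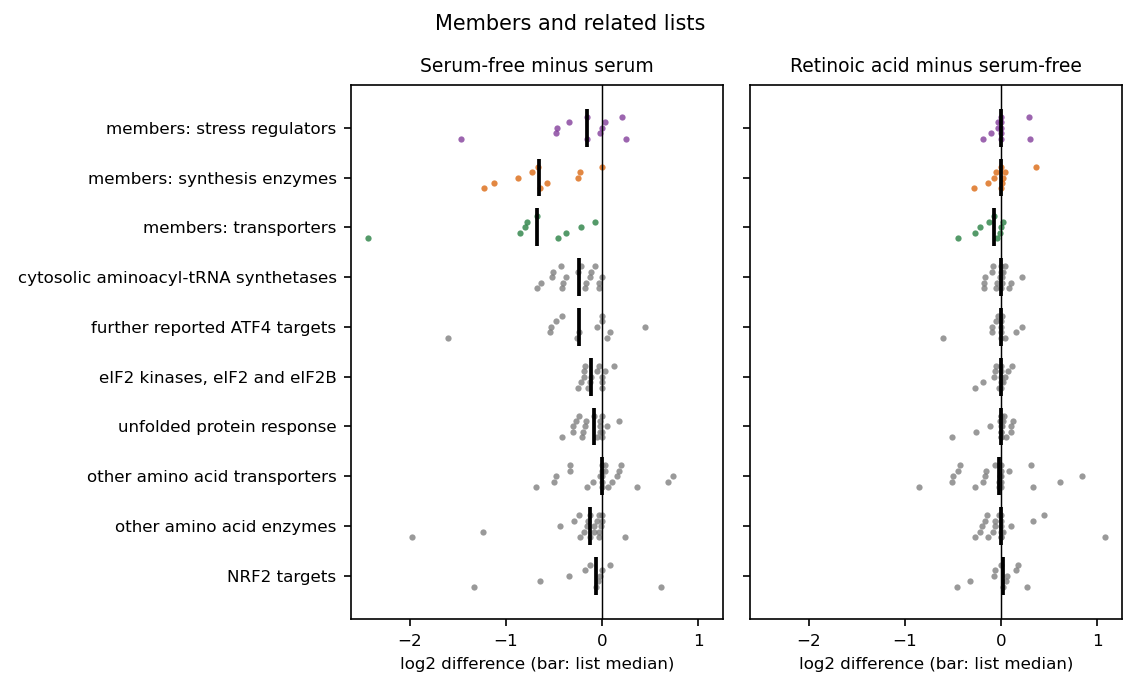
Log2 differences of every measured gene in the member roles (coloured) and in 7 related lists (grey), for serum-free minus serum (left) and retinoic acid minus serum-free (right), with the list median as a black bar. On the left the enzymes and transporters have medians of -0.65 and -0.67, the tRNA synthetases -0.24 and the other amino acid transporters 0.

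Other cell types differed between the arrays as well, and in bulk RNA fewer cells of a type and less RNA per cell cannot be told apart. Markers of the labelled tissue were present, with 8 of 8 nephron progenitor markers and 7 of 7 measured ureteric bud markers at or above the floor on each array. The nephron progenitor markers summed to 11937 in serum, 13138 serum-free and 9625 with retinoic acid. Between retinoic acid and serum-free medium 6 of the 8 were lower, 1 higher and 1 equal, from -2.13 for Cited1 to 0.51 for Wt1. In that comparison 28.0% of all genes were lower and 51.6% exactly equal. Of 15 macrophage markers, 12 were higher by 2-fold or more without serum, beside 0.876% of genes that passed the floor. The summed intensity of the 15 was 4095 in serum, 11875 serum-free and 8253 with retinoic acid. For 5 smooth muscle markers the sums were 7806, 2744 and 1100.0 in that order, a sum that includes the bright Acta2 (12.42, 11.11 and 9.72). Of these 5 markers, 4 were at or above the floor in serum, 2 serum-free and 1 with retinoic acid. For 9 proliferation genes the sums were 19165, 17654 and 17739. The 8 early nephron markers summed to 8415, 5363 and 5953, a sum that includes the bright Ccnd1 (12.17, 11.75 and 11.59). Their median difference was -0.84 without serum and 0.35 between retinoic acid and serum-free medium. In the second comparison 4 were higher, 2 lower and 2 equal, beside the 28.0% of all genes lower and 51.6% exactly equal given above. The 7 ureteric bud markers summed to 7728, 4552 and 7603, a sum that includes the bright Calb1 (11.67, 9.73 and 11.91). Their median difference without serum was -0.31. Calb1 differed by -1.94, Ret by -1.16 and Wnt11 by -0.67. Smaller differences were those of Cdh1 (-0.31), Wnt9b (-0.20), Gata3 (-0.13) and Krt8 (0.08). The sums were 3990, 6353 and 5112 for 6 endothelial markers, and 1324, 2605 and 1240 for 5 sympathoadrenal and neural markers. The 30 members summed to 27887, 19485 and 18348, and the brightest genes weigh most in such sums. Sex-specific transcripts differed in every comparison. Xist differed by 0.64 between serum-free and serum, by -1.70 between retinoic acid and serum-free medium and by -1.05 between retinoic acid and serum, and the Y-linked genes Eif2s3y, Kdm5d and Uty ran the other way. The sex of the embryos and the medium cannot be told apart in any of them. The part of these differences in the members' values was not tested.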

How the data were processed

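Total RNA (250 ng per array) was labelled and hybridised, per the labels' protocols. The deposited table holds linear probe set intensities, made by the authors with Affymetrix Expression Console 1.1 and RMA, per the submitters' processing notes. RMA subtracts background, equalises the arrays by quantiles and summarises probes by median polish over the arrays, which returns many exact ties and can understate small differences. The settings of that run are not stated in the labels.

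Values were taken to log2 with no pseudocount. Of 35556 probe sets, 21789 carried exactly 1 symbol, and the one with the highest mean represented its gene. The floor was the median over genes and arrays. With 1 array per medium no p-value was computed, and calls rest on size alone. The calling step was tested on simulated data. Promoters were searched with Python 3.11.15, and cyclic loess used limma 3.58.1. All members are named, and of other lists up to 3 genes with the largest difference among those above the floor in a comparison. The members and lists were chosen with earlier results of these data known. Alternatives were the scaling, an offset of 32, the probe set summary, the floor, the fold and the motif.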

Additional observations from a re-analysis of the deposited data

How the results depend on the processing

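The choice of fold moved the counts most. At 1.5-fold, 11 members were lower without serum and 14 lower with retinoic acid than in serum. The other alternatives for counts of calls, medians and motif matches stayed within 1.5 times the reported count or within the 95th percentile of disagreement between probe sets of a gene (0.28 for both comparisons with serum-free medium, 0.33 for retinoic acid against serum). Of single members, Slc7a3 alone moved further, to -2.07 and -2.12 against serum with 32 added to the intensities, and 0 called members changed sign. Centring the arrays moved the median of all genes by -0.07 without serum. Counts of signs depend on the scaling because it breaks ties: with retinoic acid against serum-free medium, the members above 0 went from 7 to 15 under cyclic loess and 16 with centred arrays, and without serum from 3 to 5 and 2. No paired analysis was possible because each medium had 1 array. Signals under the floor limit Aldh1l2, Arg2, Slc7a3, Slc7a11, Stc2, Nupr1, Fgf21, Trib3 and Cbs.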

Other observations

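Enzymes of amino acid metabolism outside the member list had a median of -0.12 without serum over 21 measured genes. Of these 18 were lower, beside 31.9% of all genes, and 1 was higher. That share of all genes was 56.0% under cyclic loess and 84.9% with centred arrays. Signs of these enzymes under those scalings are not given here. Enzymes of this list lower by 2-fold or more were 2, beside 0.699% of genes that passed the floor. Arg2, the mitochondrial arginase that turns arginine into ornithine, was at 8.51 in serum, 6.53 serum-free and 7.61 with retinoic acid. Bcat1, the cytosolic branched-chain aminotransferase, was at 9.11, 7.88 and 8.33 in that order. The serum-free value of Arg2 lay under the floor, so the sizes of its differences are uncertain. Both were higher with retinoic acid than in serum-free medium, Arg2 by 1.08 and Bcat1 by 0.45.

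Slc7a11 and Chac1 act on cystine and glutathione, which the factor NRF2 also governs. Among 11 measured NRF2 targets the median without serum was -0.06. Nqo1, a quinone reductase, was at 8.48 in serum, 7.15 serum-free and 7.33 with retinoic acid, and Gclc, which starts glutathione synthesis, differed by -0.65 without serum. Hmox1, which degrades haem, ran the other way, at 9.84, 10.45 and 10.00.

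A further probe set, annotated to both Phgdh and Gm6756 and not used above, read 9.63 in serum, 9.40 serum-free and 9.34 with retinoic acid. Its difference without serum was -0.23, and that of the Phgdh probe set used was -0.25.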
